A study of Mus musculus with 9 samples.

Results

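miR-122 was followed through 9 mouse small RNA-seq libraries by the 5′ ends of reads on its single gene, Mir122. The members were chosen by position: every read whose 5′ end lies on the Mir122 hairpin on the plus strand, on either arm and at any start. This gave 1 gene of the 2202 miRNA genes in GENCODE M21 and 25 distinct 5′ starts of 2954434 in the 9 libraries. The hairpin (ENSMUSG00000065402.1, GRCm38 chr18:65248861-65248926, plus strand, 66 nt) lies inside an exon of the long noncoding RNA gene AC157910.3 (exon at chr18:65245359-65252621). The reference 5p start, which is the 5′ end whose level equals the study's entry for miR-122-5p, is position 65408520 of chromosome 18 in mm9, the build of the alignments. Placed by the mismatching bases of the reads, this start fell on base 6 of the hairpin, with 0 of 111 kinds of mismatch in conflict, against 20 in conflict for the next best placement. Positions below are counted in nt from this start, which is 0. The reference 3p start is at +35.

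The MIN6 group held 7 libraries. MIN6 is an insulinoma-derived mouse beta-cell line grown in 25 mM glucose DMEM with 10% heat-inactivated fetal bovine serum. Of these, 3 were prepared with Illumina TruSeq (TS-GAIIx) and 3 with Illumina v1.5 (v1.5-GAIIx), all 6 sequenced on the GAIIx, and 1 with Bioo Scientific NEXTflex V2 (NF-HiSeq). The remaining libraries, TS-HiSeq-ML (TruSeq) and NF-HiSeq-ML (NEXTflex), were prepared from the same liver RNA of 1 female C57BL/6J mouse, bought at 9 weeks of age and fasted overnight 7 days after an injection of saline. Thus no liver library has a replicate, and intervals given for single libraries are exact 95% intervals that cover counting error only, since the reads carry no molecular identifiers. Levels are in RPMM, the reads per 1e6 mapped reads, with the study's number of mapped reads, 6644520 to 25566100 per library, as the denominator.

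A primary miRNA transcript is cut by Drosha at the base of a hairpin, and Dicer then removes the loop to leave a duplex of the 5p and 3p arms. One arm is usually kept in an Argonaute protein as the guide, and bases 2 to 8 of the guide, the seed, pair with target mRNAs. Reads that start or end a few bases away from the reference are called isomiRs: a shifted 5′ start changes the seed, whereas a shifted or extended 3′ end does not. miR-122 is the characteristic miRNA of hepatocytes, where it takes part in cholesterol and lipid metabolism and binds the hepatitis C virus genome, and the poly(A) polymerase GLD2 (TENT2) is known to add adenine to the 3′ end of its 5p arm.

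The liver RNA carried far more miR-122-5p than the MIN6 RNA with TruSeq and with NEXTflex, the kits used for both, but its place in the liver profile differed between preparations. At the reference start, miR-122-5p reached 17244 RPMM in TS-HiSeq-ML (284331 reads, interval 17180 to 17307) and 532452 RPMM in NF-HiSeq-ML (7660917 reads, interval 532075 to 532829). The NEXTflex level was therefore 30.9-fold higher (interval 30.8 to 31.0), for the same RNA, and miR-122-5p made up 1.72% of mapped reads in one library and 53.2% in the other. Of the 129 reference miRNAs that the study listed as highly expressed in liver, 5 stood above miR-122-5p in TS-HiSeq-ML and none in NF-HiSeq-ML. The highest other miRNA was miR-192-5p, also abundant in liver, at 82266 RPMM in TS-HiSeq-ML, 4.77-fold above miR-122-5p. In NF-HiSeq-ML it was let-7b-5p, a member of the widely expressed let-7 family, at 25166 RPMM, which miR-122-5p exceeded by 21.2-fold. Only 3 of the 129 had a larger NEXTflex over TruSeq ratio after adding 1 RPMM, namely miR-29a-3p (118.9, on 8 TruSeq reads) and both copies of miR-7a-5p (85.5 and 72.3). The mature sequences of the leading miRNA in each liver library and of the one with the largest ratio are shown for comparison, from RefSeq (GRCm38.p6), with the seed in capitals.
mmu-miR-192-5p (chr19:6264857-6264877, plus strand): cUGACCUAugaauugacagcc
mmu-let-7b-5p (chr15:85707325-85707346, plus strand): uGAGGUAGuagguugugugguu
mmu-miR-29a-3p (chr6:31062673-31062694, minus strand): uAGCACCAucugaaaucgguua

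**Figure D1:**
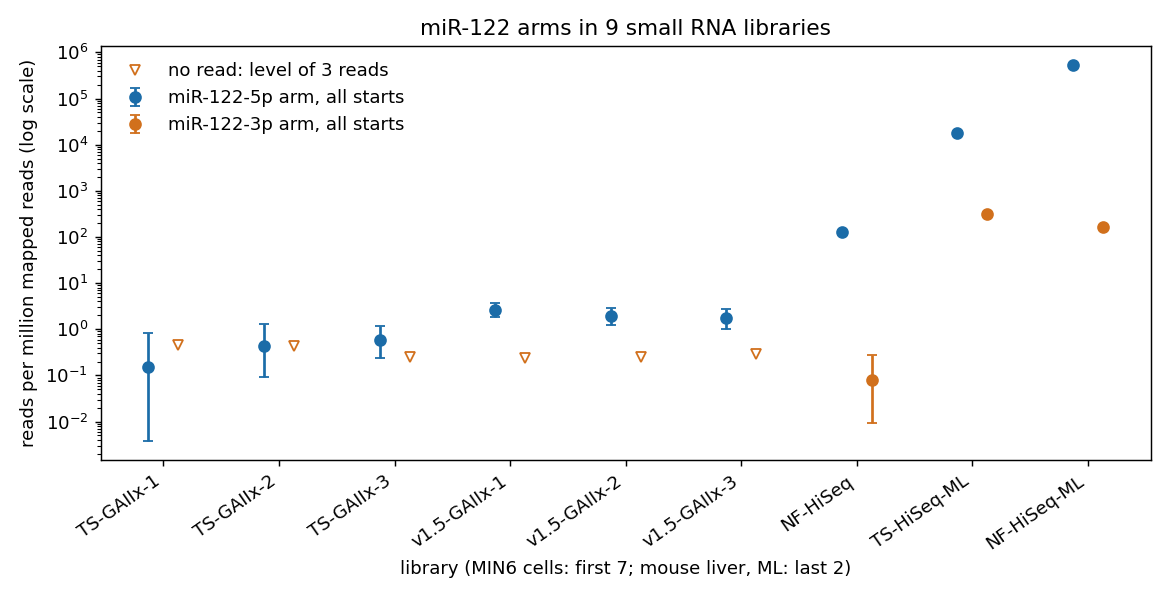
Levels of both miR-122 arms, all starts summed, in each of the 9 libraries in RPMM on a log axis; bars are exact 95% Poisson intervals, and open triangles mark libraries without a read at the level that 3 reads would give. The 5p arm lies at 538732 RPMM in NF-HiSeq-ML, 17495 in TS-HiSeq-ML, 129.0 in NF-HiSeq and from 0.150 to 2.62 in the 6 GAIIx libraries, whereas the 3p arm lies at 314.5 and 164.6 RPMM in liver.

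The entries that the study listed for liver included 6 starts of Mir122. Of the 178 entries, 11 (6.18%) were more than 10-fold higher in NF-HiSeq-ML and 29 (16.3%) more than 10-fold higher in TS-HiSeq-ML, after adding 1 RPMM to both. Of the 6 Mir122 entries, 3 were past 10-fold, all on the 5p arm and all higher with NEXTflex: the reference start (30.9), start +1 (384.2) and start +4 (11.8). Start -1 had a ratio of 9.58, just inside the limit, and both 3p entries were below 1 (0.494 and 0.594). The study's term highly expressed stands for at least 100 RPMM in at least 1 library. Starts +1 and +4 reached this level only in NF-HiSeq-ML, and both 3p entries only in TS-HiSeq-ML. For these entries the direction of the ratio was therefore set by the listing. The 6 entries also share 1 hairpin and are not independent. With 1 library per preparation the ratios have no test. Since miR-122-5p itself is 53.2% of mapped reads in NF-HiSeq-ML, every RPMM there depends on it. With the Mir122 reads taken out of both denominators, an alternative chosen after seeing the data, the 5p ratio became 65.8 and the ratio of the 3p reference start turned from 0.491 to 1.05. With the reads of the 178 entries as the denominator the ratios were 17.99 and 0.286.

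The balance of the arms does not depend on the denominator, and it differed between the liver libraries. The 3p arm, all starts summed, had 5185 reads (314.5 RPMM, interval 305.9 to 323.1) in TS-HiSeq-ML and 2368 reads (164.6 RPMM, interval 158.0 to 171.3) in NF-HiSeq-ML, although the latter had far more 5p reads. The 5p arm made up 98.2% of hairpin reads (interval 98.19 to 98.28%) with TruSeq and 99.97% (interval 99.968 to 99.971%) with NEXTflex. Expressed as a ratio, there were 55.6 reads of the 5p arm for each 3p read in TS-HiSeq-ML and 3273 in NF-HiSeq-ML, a difference of 58.8-fold in the same RNA. In MIN6, NF-HiSeq had 2 reads of the 3p arm beside 3298 of the 5p arm, and the 6 GAIIx libraries had none, for which the level of 3 reads is 0.238 to 0.451 RPMM.

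Nearly all 5p reads began at the reference start, and the levels of the rare other starts differed widely between the liver libraries. The reference start held 98.6% of 5p reads in TS-HiSeq-ML, 98.8% in NF-HiSeq-ML and 99.0% in NF-HiSeq. Among the listed miRNAs with at least 1000 reads, the share of reads within 5 nt of the reference that began elsewhere was 1.35% for miR-122-5p in TS-HiSeq-ML, beside a median of 1.55% over 120 miRNAs, and 1.16% in NF-HiSeq-ML, beside a median of 1.06% over 112. The start at +1, which moves the seed by 1 base, was the second commonest with NEXTflex and among the rare ones with TruSeq. It had 4227 RPMM (60824 reads) in NF-HiSeq-ML and 10.0 RPMM (165 reads) in TS-HiSeq-ML, a 422-fold difference (interval 362.6 to 495.2), or 0.785% and 0.0572% of the 5p arm. The +1 start was also the second commonest in NF-HiSeq, with 21 of 3298 5p reads.

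The start at -1 was the second commonest in TS-HiSeq-ML, with 161.8 RPMM, and had 1559 RPMM in NF-HiSeq-ML, a 9.63-fold difference (interval 9.25 to 10.0). Most of these reads did not carry the genomic base at their first position. The first base was a mismatch in 86.1% of them in TS-HiSeq-ML, where 25.1% were an uncalled N, and in 67.9% in NF-HiSeq-ML. At the reference start the first base mismatched in 0.885% and 0.124% of reads of at least 21 nt. Thus most reads of the -1 start carried an untemplated base in front of the reference start. The start at +4 had 24.9 RPMM in TS-HiSeq-ML and 306.3 in NF-HiSeq-ML, a ratio of 12.3 (interval 11.1 to 13.6). Starts +2 and +3 had ratios of 9.17 and 4.13. Further inside, NEXTflex was not higher: start +5 had 123.8 reads in TS-HiSeq-ML and 2.5 in NF-HiSeq-ML, and start +6 had 201.4 and 101.7. At start +6, 69.4 of the TruSeq reads were shared with other places of the genome.

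The shifted starts shared their 3′ ends with the reference reads. In NF-HiSeq-ML the last base lay from +20 to +22 in 95.9% of reads of the reference start, 98.7% at start -1, 95.1% at start +1 and 99.98% at start +4. The corresponding shares in TS-HiSeq-ML were 95.3%, 95.3%, 91.5% and 97.6%. Reads of start +4 were accordingly short: 40.4% were 18 nt and 49.4% were 19 nt with TruSeq, and 47.8% and 39.0% with NEXTflex.

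**Figure D2:**
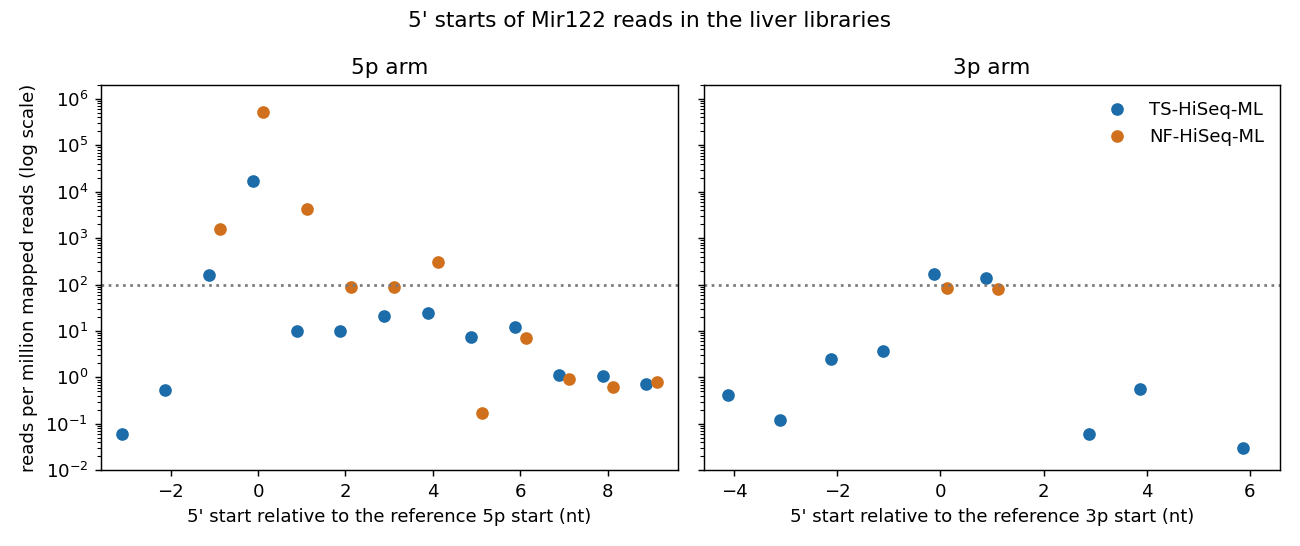
Level of each 5′ start on the 5p arm (left) and the 3p arm (right) in the liver libraries, in RPMM on a log axis, against the distance in nt from the reference start of that arm; the dotted line marks 100 RPMM, and 3 starts with under 7 reads each, in TS-HiSeq-ML, lie beyond the axes. Start +1 of the 5p arm is at 4227 RPMM with NEXTflex and 10.0 with TruSeq, whereas the starts at 0 and +1 of the 3p arm are lower with NEXTflex.

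The 3p arm had no dominant start. In TS-HiSeq-ML the reference 3p start had 169.4 RPMM (2794 reads) and the start 1 nt further had 137.5 RPMM (2267 reads), and in NF-HiSeq-ML they had 83.3 RPMM (1198 reads) and 81.3 RPMM (1170 reads). Other starts than the reference made up 46.1% of 3p reads in TS-HiSeq-ML and 49.4% in NF-HiSeq-ML. Of the listed miRNAs with at least 1000 reads, 3 of 120 had a higher such share in TS-HiSeq-ML and none of 112 in NF-HiSeq-ML. TS-HiSeq-ML had 10 starts on the 3p side of the hairpin and NF-HiSeq-ML 2. The whole libraries also differed in this direction, with 1354717 and 37587 distinct 5′ starts.

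Lengths of the 3p reads also differed. Reads of the reference 3p start were 22 nt long in 70.5% of cases in TS-HiSeq-ML, whereas NF-HiSeq-ML had 34.8% of 20 nt, 34.6% of 21 nt and 30.6% of 22 nt. Without mismatches, the 20-nt form was 3.27-fold higher with NEXTflex (interval 2.70 to 3.98) and the 21-nt form 1.66-fold higher (interval 1.42 to 1.94), whereas the 22-nt form was 4.35-fold higher with TruSeq. The lower 3p level with NEXTflex was therefore the sum of forms that moved in opposite directions. Those 22-nt reads end on the base at +56. The reads of the next start also ended there most often, in 71.5% of cases with TruSeq and 81.4% with NEXTflex.

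**Figure D3:**
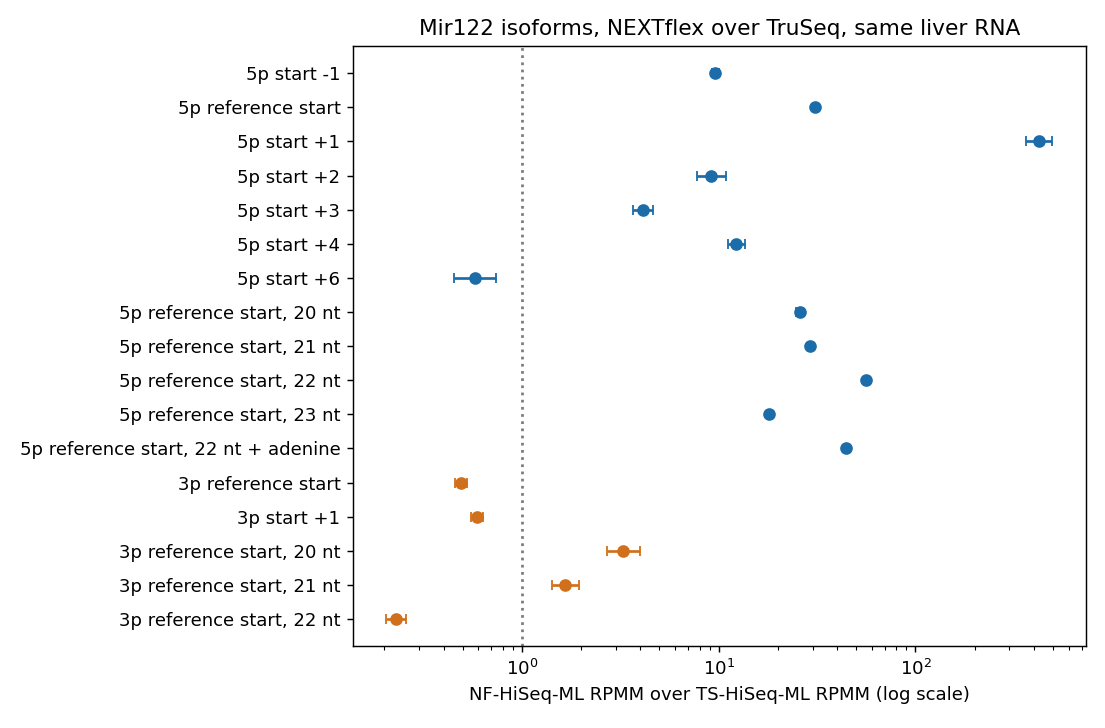
Ratio of the level in NF-HiSeq-ML to the level in TS-HiSeq-ML for starts and templated lengths of the 5p arm (blue) and the 3p arm (orange), on a log axis with exact 95% intervals; the dotted line marks a ratio of 1. The plotted ratios of the 5p arm run from 0.578 at start +6 to 422 at start +1, with start +5 (0.0231, on 2.5 NEXTflex reads) not drawn, and those of the 3p arm from 0.230 for the 22-nt form to 3.27 for the 20-nt form.

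The reference 5p reads were mostly 21 to 23 nt long, with different shares of each length in each preparation. In TS-HiSeq-ML, 58.9% were 23 nt, 21.5% were 22 nt and 14.9% were 21 nt, and the mean was 22.50 nt. In NF-HiSeq-ML, 44.1% were 23 nt, 37.7% were 22 nt and 14.1% were 21 nt, with a mean of 22.35 nt. NF-HiSeq, the MIN6 library made with NEXTflex, had 39.98%, 40.2% and 15.9%, with a mean of 22.31 nt. Thus the 22-nt share was higher and the 23-nt share lower in both NEXTflex libraries than in TS-HiSeq-ML. The intervals do not overlap, but they cover counting error only, and NF-HiSeq differs from TS-HiSeq-ML in RNA source as well. In MIN6 with TruSeq, 63.6% of the 11 pooled TS-GAIIx reads were 22 nt and 27.3% were 23 nt. Taken by itself, the templated 22-nt form was 56.05-fold higher in NF-HiSeq-ML than in TS-HiSeq-ML (interval 55.6 to 56.5), whereas the templated 23-nt form was 17.9-fold higher (interval 17.8 to 18.04). The 20-nt and 21-nt forms lay between, at 25.8 and 28.9.

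**Figure D4:**
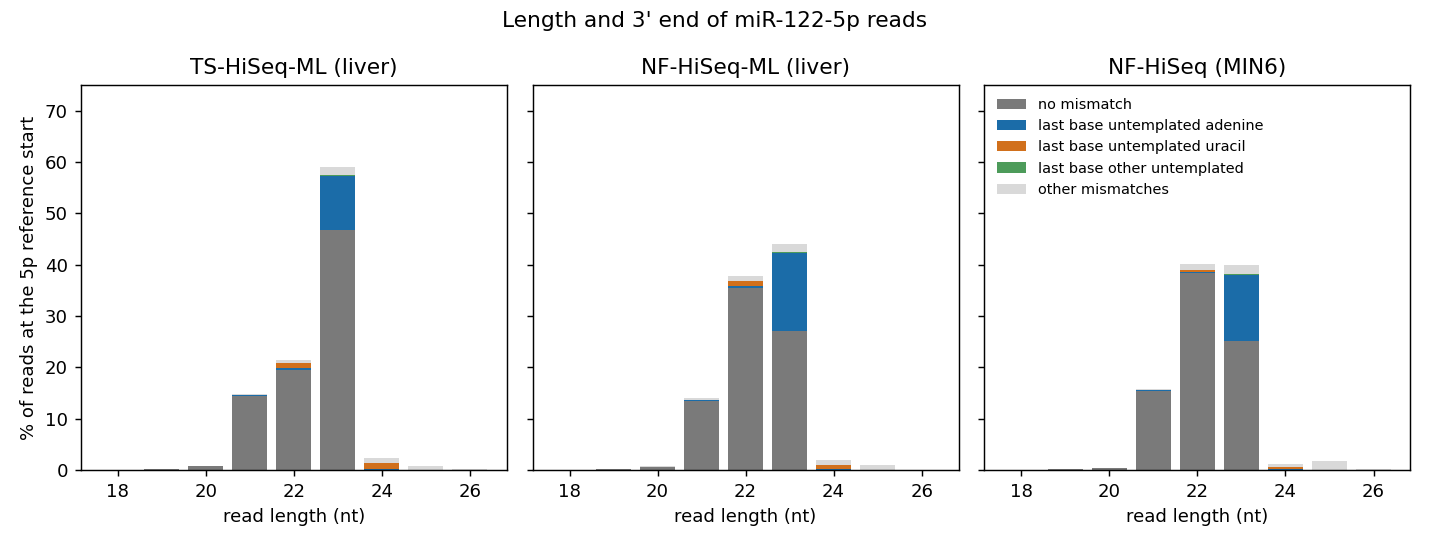
Length of reads at the 5p reference start as a percentage of those reads in TS-HiSeq-ML, NF-HiSeq-ML and NF-HiSeq, with each bar divided by the kind of mismatch. Reads without mismatch are commonest at 23 nt in TS-HiSeq-ML (46.8%) and at 22 nt in NF-HiSeq-ML (35.4%) and NF-HiSeq (38.4%), and an untemplated adenine is found mainly in reads of 23 nt.

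Of the last bases that mismatched the genome, adenine was the commonest on miR-122-5p in each of the libraries with enough reads. A read was counted as extended when its last base was its only mismatch. An added adenine was present on 11.3% of reference reads in TS-HiSeq-ML (interval 11.2 to 11.4%), 16.2% in NF-HiSeq-ML (interval 16.14 to 16.19%) and 13.4% in NF-HiSeq (interval 12.2 to 14.6%). An added uracil was present on 2.17%, 1.63% and 0.919%. Among the listed miRNAs with at least 1000 reads, 18 of 120 had a higher adenine share in TS-HiSeq-ML and 18 of 112 in NF-HiSeq-ML, where the medians were 4.67% and 6.87%. The highest was miR-28-3p in both, with 83.0% and 50.3%. The adenine share of miR-122-5p was thus above the median in both preparations, and its counted uracil share below it (medians 4.93% and 5.78%). An added uracil after 20 or 22 bases matches the genome and is not counted. The uracil shares are therefore lower bounds, and neither their rank nor that of adenine over uracil is settled. An added adenine could be counted on miR-122-5p after 20, 21, 22 and 23 bases. On the other listed miRNAs an added adenine that matches the genome is not counted, so the adenine rank and medians are not like for like.

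The adenine was found mainly after 1 particular length. Of reads with 22 templated bases, with or without 1 adenine behind them, 34.96% carried it in TS-HiSeq-ML, 30.0% in NF-HiSeq-ML and 25.1% (interval 23.1 to 27.3%) in NF-HiSeq. After 20 templated bases the shares were 19.7% and 25.9% in the liver libraries. After 21 bases they were 2.36% and 3.29%, and after 23 bases 0.561% and 1.10%. The order by length (22, 20, 21, 23) was the same in both liver libraries, but the difference between the preparations was not in 1 direction, since TruSeq had the higher share after 22 bases and NEXTflex the higher after the other 3 lengths. Uracil could be counted only after 21 and 23 bases, with 7.19% and 6.42% after 21 bases and 2.21% and 2.53% after 23. Its dependence on length therefore cannot be ranked against that of adenine. The genome itself has this base after 20 and after 22 bases, so that an added uracil there would be counted as templated.

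**Figure D5:**
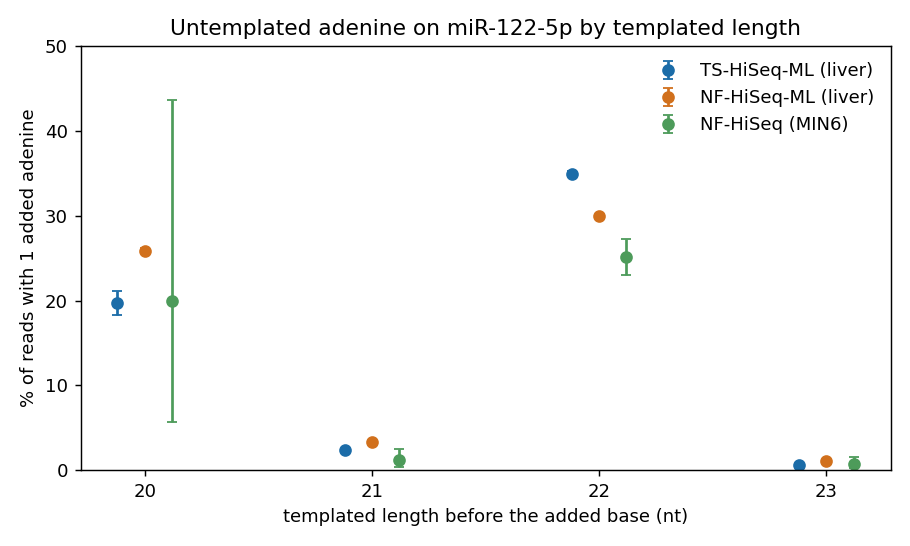
Percentage of reads at the 5p reference start that carry 1 untemplated adenine, by the number of templated bases before it, in TS-HiSeq-ML, NF-HiSeq-ML and NF-HiSeq, with exact 95% intervals. The share is 25.1% to 34.96% after 22 bases, 19.7% to 25.9% after 20 bases and at most 3.29% after 21 or 23 bases.

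On other starts the same ending was found where reads sufficed. At start +1, 14.0% of reads in NF-HiSeq-ML and 12 of 165 in TS-HiSeq-ML (7.27%, interval 3.81 to 12.4%) ended in an added adenine, and at start +4 the shares were 16.2% and 3.21%. Start -1 had 2.47% and 1.499%, but reads with an untemplated first base cannot meet the definition, which allows no other mismatch. The 3p arm differed from the 5p arm. With TruSeq its reference reads ended more often in an added uracil (4.90%) than in an added adenine (1.79%). With NEXTflex neither was found in 1198 reads. These held only 21 distinct alignments, against 68 for the 2794 reads with TruSeq. At the next 3p start an added adenine was on 7.95% of reads with NEXTflex and 2.07% with TruSeq.

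Inside the reference reads mismatches were rare. From base 2 to base 20, the share of reads with a mismatch was between 0.0128% and 0.158% in TS-HiSeq-ML and between 0.0241% and 0.397% in NF-HiSeq-ML. The highest value in NF-HiSeq-ML was at base 4, as in NF-HiSeq (0.556%), whereas base 4 had 0.0505% in TS-HiSeq-ML.

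In MIN6, miR-122 was at trace level in the 6 GAIIx libraries and higher in NF-HiSeq. TS-GAIIx had 1, 3 and 7 reads of the reference 5p start (0.150, 0.438 and 0.581 RPMM), with a mean of 0.390 ± 0.219 RPMM (SD, n = 3). The v1.5-GAIIx libraries had 30, 23 and 18 reads (2.38, 1.93 and 1.73 RPMM), with a mean of 2.01 ± 0.332 RPMM (SD, n = 3). Every v1.5 library was above every TruSeq library, and the mean was 5.16-fold higher. NF-HiSeq, a single library, had 127.7 RPMM (3265 reads, interval 123.3 to 132.1), 63.4-fold above the v1.5 mean and 327.4-fold above the TruSeq mean. By the study, NF-HiSeq also differed from the GAIIx libraries in platform and sequencing center. Its RNA was that of a TruSeq library run on the HiSeq, and RNA extraction differed between the study's sites. Preparation, RNA, platform and center cannot be told apart here.

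Across all 55113 5′ ends with at least 10 reads in the 6 GAIIx libraries, edgeR's quasi-likelihood test called the trace higher in v1.5-GAIIx, with a log2 fold change of 2.25 ± 0.40 (SE) and a Benjamini-Hochberg adjusted p of 0.00469. This call is common: 32.3% of these 5′ ends were called higher in v1.5-GAIIx, 19% were called higher in TS-GAIIx, and in 40.8% all 3 v1.5 libraries lay above all 3 TruSeq libraries. The median log2 fold change of all tested ends was 0.68. A two-sided exact permutation test of the RPMM values gave p = 0.1, the smallest value that 3 against 3 libraries allow. The study calls the libraries of a group biological replicates, but neither it nor the labels say that they came from separate cultures, and the p-values measure the spread between these libraries.

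The read ends of the traces could be compared with those of liver. Of the 71 reference reads in v1.5-GAIIx, 23 were 21 nt, 28 were 22 nt and 16 were 23 nt, and 4 ended in an added adenine. Of the 11 in TS-GAIIx, 7 were 22 nt and 3 were 23 nt, and 1 of the latter ended in an added adenine. Pooled, the 23-nt share was 22.5% in v1.5-GAIIx and 27.3% in TS-GAIIx. It varied among the v1.5 libraries, with 3 of 30, 5 of 23 and 8 of 18 reads. The intervals of v1.5-GAIIx-1 (2.11 to 26.5%) and v1.5-GAIIx-2 (7.46 to 43.7%) lie below the value of both liver libraries. That of v1.5-GAIIx-3 (21.5 to 69.2%) holds both values. The pooled v1.5 interval (13.5 to 34.0%) also lies below both. The only other start in the GAIIx libraries was +5, with 3 reads in v1.5-GAIIx-1. NF-HiSeq had 6 starts on the hairpin, and its shares of 22-nt and 23-nt reads, given above, were closer to those of NF-HiSeq-ML than of TS-HiSeq-ML.

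Set against liver prepared with the same kit, the MIN6 level was 0.00250% of the liver level with TruSeq, over the pooled reads of the 3 libraries (liver 40024-fold higher, interval 22368 to 80177) and 0.0240% with NEXTflex (4170-fold, interval 4029 to 4316). For TruSeq the platform differs as well as the RNA source, and these cannot be told apart. In bulk RNA, few cells with much miR-122 and many cells with little of it cannot be told apart either. Of the 114 listed miRNAs with at least 100 RPMM in TS-HiSeq-ML, 2 had a lower MIN6 share, both without a read in TS-GAIIx, and 1 of them was miR-122-3p. The median share was 82.4%. With NEXTflex, none of the 106 with at least 100 RPMM in NF-HiSeq-ML had a lower share. The next was miR-143-3p, a miRNA of smooth muscle and stroma, at 0.0291%, and the median was 135.0%. Listed miRNAs below 100 RPMM in NF-HiSeq-ML were left out. Some of them had no read in NF-HiSeq and thus a lower share, such as miR-100-5p (98.97 RPMM in NF-HiSeq-ML) and miR-122-3p (83.3 RPMM).

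The marker miRNAs give the setting of these levels. Among 5 hepatocyte-enriched miRNAs, miR-122-5p separated liver from MIN6 most, by 44213-fold over the TS-GAIIx mean and 4170-fold with NEXTflex. On the same scale miR-192-5p was 61.3-fold higher in liver with TruSeq and 24.2-fold with NEXTflex, miR-194-5p 122.9-fold and 37.2-fold, and miR-802-5p 8.95-fold and 1.37-fold, whereas miR-148a-3p was at ratios of 1.64 and 0.713. Summed over the list, hepatocyte markers were at 129321 and 557291 RPMM in liver and at 5690 to 21596 in MIN6. Without miR-122-5p itself the other 4 summed to 112078 RPMM in TS-HiSeq-ML against 12443 to 13198 in TS-GAIIx, and to 24839 in NF-HiSeq-ML against 5562 in NF-HiSeq, and most of the MIN6 sums was miR-148a-3p. The 5 beta-cell and endocrine markers, such as miR-375-3p, summed to 919 and 784 RPMM in liver and to 98245 to 332721 in MIN6. The 4 blood markers that could be placed of 6 (miR-142-3p and miR-223-3p were not) summed to 39.5 to 42.1 RPMM in TS-GAIIx, 2.46 to 4.36 in v1.5-GAIIx and 21.6 in NF-HiSeq, against 10376 and 1788 in liver. The 3 stromal markers summed to 6.27 to 12.7 RPMM in MIN6 and to 9996 and 2141 in liver, and the 2 endothelial markers to 84.9 to 287.2 and to 8967 and 2725. The 4 other epithelial markers were higher in MIN6, at 14481 to 77966 RPMM, than in liver (133.0 and 85.0). miR-150-5p had no read in v1.5-GAIIx or NF-HiSeq, and miR-142-5p none in NF-HiSeq. The blood sum was lower in v1.5-GAIIx than in TS-GAIIx mainly through miR-486-5p, with means of 1.90 and 35.6 RPMM. The means of miR-142-5p (0.640 and 4.51) and miR-150-5p (0 and 0.496) were lower in v1.5-GAIIx as well. Of the placed blood markers only miR-451, a miRNA of red blood cells, was higher in v1.5-GAIIx, as miR-122-5p was. Its levels were 0.793, 1.34 and 0.866 RPMM in v1.5-GAIIx and 0.301, 0 and 0.498 in TS-GAIIx. The part of reads from other libraries or tissues in the MIN6 levels was not tested.

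Profiles over the 9 libraries were compared with that of miR-122-5p. By the root mean square difference of log10(RPMM + 1), each profile centred on its own mean, the nearest were miR-1247-5p (1.02), miR-143-3p (1.07), miR-100-5p (1.18), miR-203-3p (1.20) and miR-486-5p (1.21). miR-1247-5p was at 201.7 and 247.9 RPMM in liver, 5.28 in NF-HiSeq and 0 in the 6 GAIIx libraries. miR-143-3p was at 9373 and 1745 RPMM in liver, 0.508 in NF-HiSeq and 2.51 to 5.11 in the GAIIx libraries. miR-486-5p, a miRNA of red blood cells, was at 6186 and 1651 RPMM in liver, 21.5 in NF-HiSeq, 33.6 to 36.9 in TS-GAIIx and 1.40 to 2.46 in v1.5-GAIIx, and miR-3107-5p was listed at almost the same levels. miR-100-5p was at 670.2 and 99.0 RPMM in liver and at most 0.481 in MIN6, and miR-203-3p, known from epithelia, at 343.5 and 273.8 in liver and 1.46 to 11.6 in MIN6. Of these 5, all but miR-1247-5p were lower in liver with NEXTflex than with TruSeq, the reverse of miR-122-5p.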

How the data were processed

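Small RNA-seq of 9 libraries was analysed from the deposited alignment files. The authors removed adapters with cutadapt, trimmed the first and last 4 nt of NEXTflex reads and, per the labels, used Bowtie and mm9. The deposited values are expected counts per distinct alignment, in which the authors divided a read among its equally good places. They sum to 6923460 to 25638871 per library and exceed the study's mapped reads by 0.264% to 8.41%, for which no rule was found. Lines marked as exact hold an inclusive end and the others a half-open one, so that lengths were computed separately. The NEXTflex libraries held 80.2 and 101.8 reads per distinct alignment and the others 6.96 to 15.2.

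RPMM was computed here for each 5′ end, from its total count and the mapped reads. Names were joined to 5′ ends by the study's RPMM values (relative tolerance 3e-05, 178 liver entries placed, 4 with more than 1 place). The 66-nt hairpin was halved into the 5p arm (from -5) and the 3p arm (from +28). Intervals of levels are exact Poisson, of shares exact binomial (Clopper-Pearson), and of ratios conditional binomial, on counts rounded to whole numbers. MIN6 5′ ends were tested with edgeR 4.0.16 (quasi-likelihood, rounded counts, mapped reads as library sizes, at least 10 reads in all, no block), with the SE taken as the log2 fold change over the square root of F, and DESeq2 1.42.0 as an alternative. R 4.3.3, Python 3.11.15, SciPy 1.17.1, numpy 2.4.6, pandas 2.3.3 and matplotlib 3.10.9 were used. Replicates differed beyond sampling noise in every pair (chi-square per degree of freedom 23.3 to 73.9 over 2640 5′ ends). Starts of at least 100 RPMM in a liver library, the 5 nearest profiles, the leading liver miRNAs and the marker lists were named by rule, and other starts were added where described. The members, lists and rules were chosen with earlier results of these data known. The sequence of the hairpin is not reported here.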

Additional observations from a re-analysis of the deposited data

Results flagged for a closer look

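Reads of the same strand outside the hairpin belong to none of the comparisons above. TS-HiSeq-ML had 23.3 such reads (expected count) from 120 nt before to 180 nt after the reference 5p start, more than the 3 reads that a count of 0 allows, and the other 8 libraries had none. Of these, 14.3 lay upstream and 9 downstream. Among the upstream reads, 9.33 ended on the last base before the reference 5p start, with lengths of 16 to 33 nt.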

How the results depend on the processing

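The liver ratios moved with the denominator. The NEXTflex over TruSeq ratio of miR-122-5p was 33.4 with the sum of all counts, 17.99 with the reads of the named 5′ ends, 65.8 without Mir122 reads and 29.1 on exact alignments. That of the 3p reference start was 0.531, 0.286, 1.05 (a reversal) and 0.562. The counts past 10-fold moved to 21 higher in NEXTflex without Mir122 reads and to 44 higher in TruSeq with the named 5′ ends. Shares are given for TS-HiSeq-ML and NF-HiSeq-ML in turn. On exact alignments the reference 5p start held 99.3% and 99.0%, start +1 0.801% in NF-HiSeq-ML, the 3p reference start 52.9% in NF-HiSeq-ML, 22-nt reads 23.8% and 45.9%, 23-nt reads 57.2% and 35.3% (so that 22 nt became the commonest length in NF-HiSeq-ML), and the 5p arm 98.1% and 99.96%. On reads of 20 nt or longer the reference 5p start held 98.89% and 98.90%, the 5p arm 98.3% in TS-HiSeq-ML, and added adenine 16.21% in NF-HiSeq-ML. Over all 5p starts, 23-nt reads were 58.3% and 43.7%, and 22-nt reads 37.69% in NF-HiSeq-ML. Adenine was 12.23% and 17.4% when other mismatches were allowed and 12.24% and 17.2% when the last but one base was included, and uracil 3.14% and 2.35%, and 3.26% and 2.55%. The cause was not tested.

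The GAIIx trace stayed higher in v1.5-GAIIx under each alternative run, with a difference of means of 1.44 to 1.76 RPMM and a log2 fold change of 1.93 to 2.72 when 1 library was left out (exact permutation p = 0.2, the smallest with 2 against 3; edgeR adjusted p 0.00662 to 0.0167). Calls over all 5′ ends were then 22689 to 25702, against 28226 with all libraries and 20049 by DESeq2. With the replicate number as a block the log2 fold change was 2.22 (edgeR adjusted p = 0.0124) and 29423 ends were called. Same-numbered libraries did not deviate together in every pair (correlations 0.21, -0.06 and 0.05). The highest correlations with a library of another number were 0.09, 0.19 and -0.02. Such weak correlations cannot exclude a shared RNA or culture, so whether the numbers pair the samples is not known. TMM factors gave 2.00 and DESeq2 size factors 2.05. Counts of 1 to 30 reads limit the values of the GAIIx libraries, and the absence of replicates limits those of liver.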
